A study of Mus musculus with 10 samples.

Results

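The 10 genes described here, through which cells report and restrain canonical WNT signalling, are Axin2, Lef1, Tcf7, Nkd1, Nkd2, Znrf3, Rnf43, Apcdd1, Lgr5 and Lgr6, and they were compared between both cell populations of the mouse skull suture. They were grouped by name, as WNT targets, feedback inhibitors and LGR receptors. The choice was made with earlier results of these data known, so no test was run over the list. All 10 were found among the 25239 gene symbols of the count table, and 10 of 10 passed the filter on low counts that left 15416 genes for testing. RNA came from cells isolated by fluorescence-activated sorting from calvarial sutures, the seams of fibrous tissue between skull bones, at postnatal day 7. Both groups share that age, tissue and method of sorting, and the genotype entry WT. They also share a protocol that names Ctsk-Cre mice, in which the promoter of cathepsin K drives the recombinase (which alleles the animals carried is not settled by the sources used here). One group, DDR2-plus, is labelled for a collagen receptor kinase, and the other, PSC, has a label that is not expanded. Each has 5 libraries, and the titles number them 1 to 5 in both groups. The fit reported here did not pair libraries of the same number. The protocol names 5 mice without saying which mouse gave which library, and the p-values here therefore reflect library-to-library spread, which may be technical.

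In canonical WNT signalling, a ligand bound to a Frizzled and LRP receptor pair stops the breakdown of beta-catenin, which then works with TCF/LEF factors to switch genes on. Several of those genes encode brakes: AXIN2 rebuilds the destruction complex, the Naked proteins bind Dishevelled, APCDD1 binds ligand and co-receptor at the surface, and ZNRF3 and RNF43 are ubiquitin ligases that remove Frizzled receptors. R-spondins, held by the receptors LGR4, LGR5 and LGR6, take ZNRF3 and RNF43 out of the way and so raise the response. In the cranial sutures, Axin2 is a known label of stem cells.

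Relative to PSC, DDR2-plus cells had higher Axin2, Lef1 and Nkd1 and lower Tcf7, Nkd2, Lgr5 and Lgr6, while Znrf3, Rnf43 and Apcdd1 did not pass the test. Thus 3 of the 10 genes were higher, against 20.1% of all genes tested, and 4 were lower, against 19% of all genes tested (edgeR quasi-likelihood test, Benjamini-Hochberg adjusted p under 0.05 over all genes tested). The libraries of the groups did not overlap for 6 of the 10, against 30.1% of all genes tested. The median log2 fold change over the 10 genes was 0.11, beside 0.04 over all genes tested. The largest of these differences was the 8.57-fold lower level of Nkd2. Relatives with a shared biochemical role parted: Lef1 from Tcf7 and Nkd1 from Nkd2.

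**Figure D1:**
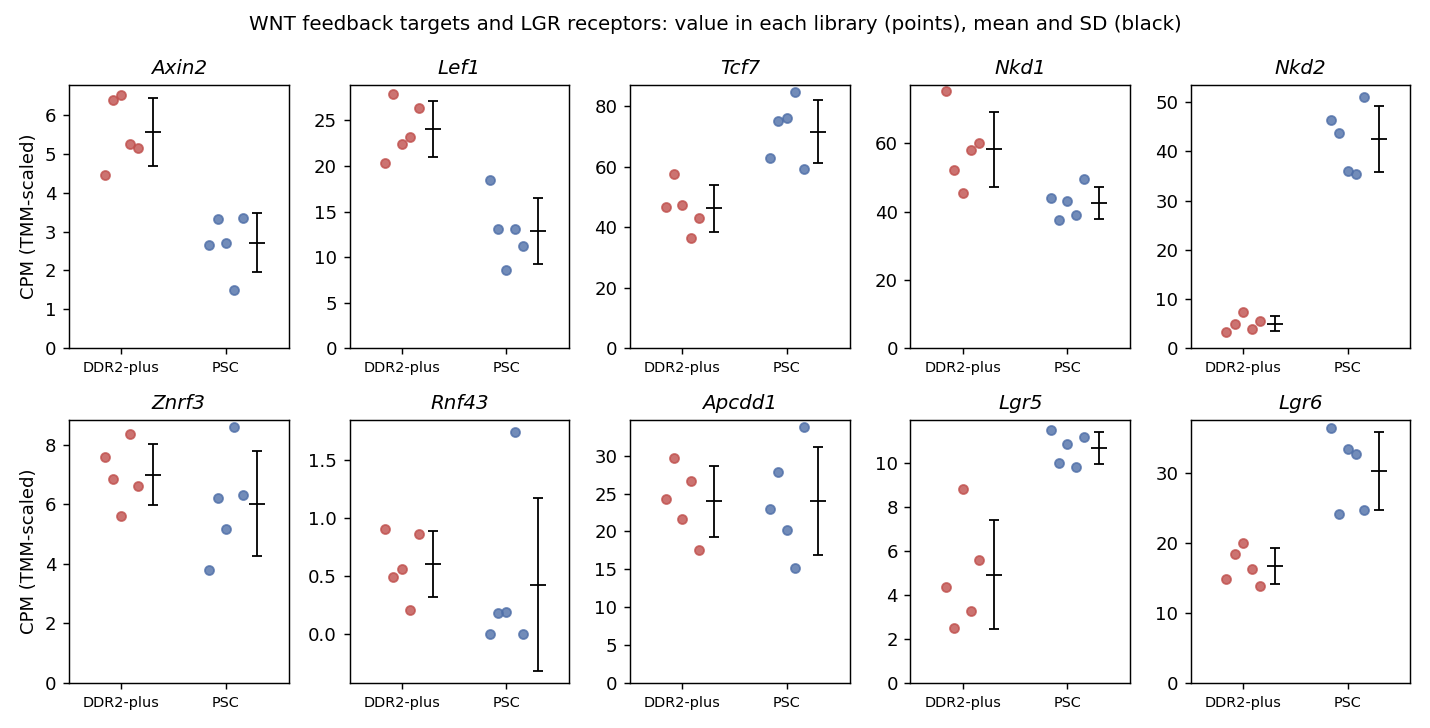
Level of each gene in CPM, its counts after division by the TMM-adjusted library size, in each library, with DDR2-plus libraries in red and PSC libraries in blue, placed left to right by number, and the mean and SD in black. For Axin2, Lef1, Tcf7, Nkd2, Lgr5 and Lgr6 no DDR2-plus point lies within the PSC range, and for Rnf43 a single PSC library, at 1.74 CPM, lies far above the others.

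Stretches of 250 bases before the annotated start were drawn from RefSeq (build GRCm38.p6) for the classic target Axin2 and for genes of the parted pairs, as DNA in which a TCF/LEF site could lie. RefSeq windows matched 7 of the 10 genes, 12 windows in all, and none was matched for Znrf3, Lgr5 and Apcdd1. Capitals mark CpG pairs in Axin2, Nkd1 and Nkd2, and the TCF/LEF word in Lef1. The positions are chr11:108920099-108920348 for Axin2 (plus strand), chr3:131156044-131156293 for Lef1 (plus strand, before an internal start), chr8:88527383-88527632 for Nkd1 (plus strand, also before an internal start, downstream of the gene start given below) and chr13:73847632-73847881 for Nkd2 (minus strand), each written 5′ to 3′ on the strand of the gene.
Axin2: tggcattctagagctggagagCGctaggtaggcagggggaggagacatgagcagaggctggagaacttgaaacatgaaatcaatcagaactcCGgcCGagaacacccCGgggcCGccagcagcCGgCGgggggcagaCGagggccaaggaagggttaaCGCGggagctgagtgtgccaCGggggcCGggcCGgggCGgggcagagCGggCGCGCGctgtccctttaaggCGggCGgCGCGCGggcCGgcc
Lef1: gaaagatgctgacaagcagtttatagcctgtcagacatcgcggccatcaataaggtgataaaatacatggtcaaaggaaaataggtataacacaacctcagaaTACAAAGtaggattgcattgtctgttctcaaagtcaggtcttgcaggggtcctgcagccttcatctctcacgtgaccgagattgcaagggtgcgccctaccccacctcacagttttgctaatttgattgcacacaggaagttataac
Nkd1: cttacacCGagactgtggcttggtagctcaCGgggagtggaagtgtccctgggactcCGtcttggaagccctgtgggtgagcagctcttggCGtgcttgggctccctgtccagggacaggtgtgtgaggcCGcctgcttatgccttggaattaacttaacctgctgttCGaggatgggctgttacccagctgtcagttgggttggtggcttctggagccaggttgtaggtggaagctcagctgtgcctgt
Nkd2: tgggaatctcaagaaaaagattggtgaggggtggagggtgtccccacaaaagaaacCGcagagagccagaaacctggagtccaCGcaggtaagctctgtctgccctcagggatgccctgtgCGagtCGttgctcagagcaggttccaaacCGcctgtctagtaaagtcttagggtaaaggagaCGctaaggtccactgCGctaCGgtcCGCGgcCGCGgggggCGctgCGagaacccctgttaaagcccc
The word sought, on both strands, was CTTTG followed by 2 bases that are each A or T, in windows of 300 bases, from 250 before to 50 after each start. A word was found in 1 of the 12 windows, the Lef1 window whose first 250 bases are shown. There TACAAAG, which reads CTTTGTA on the opposite strand, begins 147 bases before that internal start. No other Lef1 window held a word, including the one before another internal start. Over all 32851 RefSeq windows 16.9% hold such a word. The 250 bases shown hold 24 CpG pairs for Axin2 and 14 for Nkd2, whose stretches end at the outer start of the gene, and 6 for Nkd1, whose stretch lies inside the gene, so that these counts are not of like regions. Of the 12 windows, 8 are richer in G and C than the median window, at 52.7%. Words in a window are a description of the letters, and their absence says nothing of binding.

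Axin2 (mm10 chromosome 11, 108920349 to 108950783, plus strand) encodes the scaffold of the beta-catenin destruction complex that WNT signalling itself induces. Its level in DDR2-plus libraries 1 to 5 was 4.47, 6.39, 6.53, 5.27 and 5.15 CPM, and in PSC libraries 1 to 5 it was 2.66, 3.33, 2.71, 1.49 and 3.36 CPM. Every DDR2-plus library was above every PSC library. The means were 5.56 ± 0.879 and 2.71 ± 0.760 CPM (SD, n = 5 each), a 2.05-fold higher level in DDR2-plus (log2 fold change 1.04, SE 0.276, edgeR adjusted p = 0.00975). Reads carried no mark of strand, and 3.8% of the exonic bases of Axin2 lie across from an annotated gene on the opposite strand, so reads of the pair cannot be told apart there. Axin1, the relative that is expressed without need of the signal, averaged 34.8 CPM in DDR2-plus against 49.3 in PSC and did not pass the test (log2 fold change -0.50, edgeR adjusted p = 0.127). Per length of exon sequence, Axin2 made up 10.8 ± 3.91% of the AXIN pair in DDR2-plus and 3.99 ± 1.67% in PSC, with ranges of 6.21 to 15.2% and 1.81 to 6.33% that overlapped at their ends.

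Lef1 and Tcf7 encode the TCF/LEF factors that are themselves WNT targets in many tissues. Lef1 (chromosome 3, 131110471 to 131224356, plus strand) was at 20.4, 27.9, 22.4, 23.2 and 26.4 CPM in DDR2-plus libraries 1 to 5 and at 18.5, 13.0, 8.59, 13.1 and 11.2 CPM in PSC libraries 1 to 5. PSC 1 came nearest to the DDR2-plus libraries, and the groups did not overlap. Lef1 was 1.86-fold higher in DDR2-plus, at 24.0 ± 3.06 against 12.9 ± 3.64 CPM (SD, n = 5 each; log2 fold change 0.90, SE 0.182, edgeR adjusted p = 0.00173). An annotated gene on the opposite strand covers 13.7% of the exonic bases of Lef1, so part of its reads could belong to that gene.

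Tcf7 (chromosome 11, 52252371 to 52283014, minus strand), which encodes TCF1, went the other way. Its level was 46.7, 57.6, 47.5, 36.3 and 43.03 CPM in DDR2-plus libraries 1 to 5 and 62.9, 75.0, 76.1, 84.7 and 59.1 CPM in PSC libraries 1 to 5. The highest DDR2-plus library, number 2, stayed just under the lowest PSC library, number 5. The means were 46.2 ± 7.73 and 71.6 ± 10.4 CPM (SD, n = 5 each), 1.55-fold lower in DDR2-plus (log2 fold change -0.63, SE 0.129, edgeR adjusted p = 0.00185). With library size alone as the scaling, the log2 fold change of Tcf7 was -0.36 (edgeR adjusted p = 0.0301).

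Because a ratio of genes within a library does not depend on the scaling between libraries, Lef1 was also set against Tcf7 directly. There were 0.437, 0.485, 0.472, 0.638 and 0.613 Lef1 counts per Tcf7 count in DDR2-plus libraries 1 to 5. In PSC libraries 1 to 5 the ratio was 0.294, 0.174, 0.113, 0.155 and 0.189, below every DDR2-plus library. Both genes already lay apart between the groups, in opposite directions, so this separation was fixed by their levels. The permutation test of the ratio therefore adds no further support. The log2 ratio was -0.94 ± 0.243 in DDR2-plus and -2.51 ± 0.5004 in PSC (SD, n = 5 each), a 2.97-fold difference (two-sided exact permutation test, p = 0.00794, and 0.0159 adjusted over 4 pairs of relatives). This permutation test of 5 against 5 cannot give a smaller unadjusted p. Of the other members of the family, Tcf7l1 did not pass the test (log2 fold change 0.19, edgeR adjusted p = 0.133), and Tcf7l2 was 1.39-fold lower in DDR2-plus (edgeR adjusted p = 0.0115, and 0.208 under library size alone). Per length of exon sequence, Tcf7 was the largest of the 4 in both populations, at 42.8 ± 5.47% of the family in DDR2-plus and 54.0 ± 5.07% in PSC. Lef1 was the smallest, at 6.66 ± 0.516% and 2.93 ± 0.912%, without overlap between the groups. These shares depend on the length assigned to each gene. With the longest annotated transcript as the length, Lef1 made up 11.1% and 5.03%, Tcf7 31.6% and 41.0%, and Tcf7l2 27.2% and 31.8%.

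The cell types known for high Lef1 and Tcf7 outside the skeleton include T lymphocytes. Of 10 T lymphocyte markers 0 passed the filter on low counts, their summed level was 0.600 to 2.78 CPM in DDR2-plus and 0.463 to 0.921 CPM in PSC, and Cd3g had 0 counts in every library. Ptprc, with 179 counts in DDR2-plus and 2 in PSC, reached 2.39 CPM in DDR2-plus 3. The part of such cells in the levels of Lef1 and Tcf7 was not tested.

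The Naked genes gave the widest contrast. Nkd1 (chromosome 8, 88521354 to 88594884, plus strand) was at 75.2, 52.1, 45.6, 58.1 and 60.2 CPM in DDR2-plus libraries 1 to 5 and at 43.9, 37.5, 42.95, 38.9 and 49.6 CPM in PSC libraries 1 to 5. DDR2-plus 1 stood highest, and DDR2-plus 3 lay within the PSC range. Nkd1 was 1.37-fold higher in DDR2-plus, at 58.2 ± 11.1 against 42.6 ± 4.76 CPM (SD, n = 5 each; log2 fold change 0.45, SE 0.128, edgeR adjusted p = 0.0135). With library size alone as the scaling, that log2 fold change was 0.72 (edgeR adjusted p = 0.000807).

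Nkd2 (chromosome 13, 73818534 to 73847631, minus strand), which encodes the sister inhibitor of Dishevelled, was at 3.30, 4.87, 7.27, 3.95 and 5.42 CPM in DDR2-plus libraries 1 to 5. In PSC libraries 1 to 5 it was at 46.4, 43.8, 36.1, 35.4 and 51.1 CPM. The groups lay far apart, with DDR2-plus 3 the highest of its group. The means of 4.96 ± 1.53 and 42.5 ± 6.74 CPM (SD, n = 5 each) were 8.57-fold apart (log2 fold change -3.10, SE 0.205, edgeR adjusted p = 5.62e-07). By fold change, Nkd2 was 60th from the lowest of the 15416 genes tested.

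The counts of Nkd1 per count of Nkd2 were 22.8, 10.7, 6.26, 14.7 and 11.1 in DDR2-plus libraries 1 to 5, and 0.947, 0.858, 1.19, 1.10 and 0.971 in PSC libraries 1 to 5. PSC libraries thus held nearly equal counts of the sisters, whereas Nkd1 prevailed in each DDR2-plus library. The levels of Nkd1 and Nkd2 given above already fixed this separation, so the permutation test adds no further support. The difference was 11.9-fold (log2 ratio 3.58 ± 0.682 against 0.01 ± 0.186, SD, n = 5 each; two-sided exact permutation p = 0.00794, and 0.0159 adjusted over the 4 pairs). Per length of exon sequence, Nkd2 made up 7.82 ± 3.38% of the pair in DDR2-plus and 48.4 ± 3.21% in PSC.

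**Figure D2:**
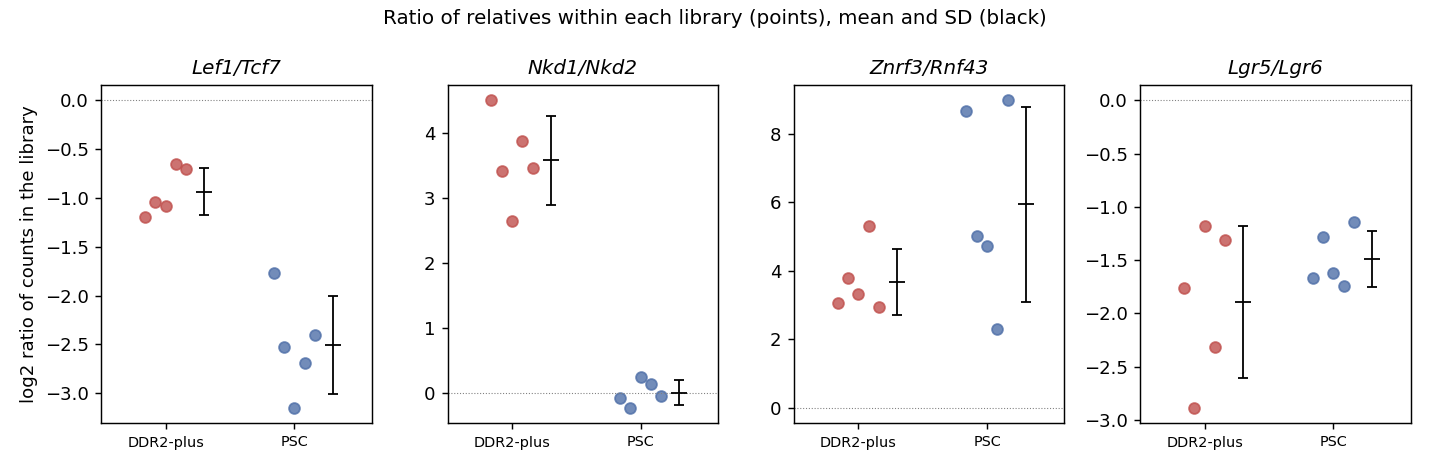
Log2 ratio of counts of related genes within each library (0.5 counts added to each), with DDR2-plus in red, PSC in blue, and the mean and SD in black. The ratios Lef1/Tcf7 and Nkd1/Nkd2 are higher in every DDR2-plus library than in any PSC library, whereas the points overlap for Znrf3/Rnf43 and Lgr5/Lgr6.

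Znrf3 (chromosome 11, 5276324 to 5444847, minus strand), which encodes the first of the ubiquitin ligases that clear Frizzled, was at 7.59, 6.85, 5.61, 8.36 and 6.61 CPM in DDR2-plus libraries 1 to 5 and at 3.81, 6.21, 5.19, 8.61 and 6.30 CPM in PSC libraries 1 to 5. The lowest and the highest value were both in PSC, in libraries 1 and 4. The means of 7.004 ± 1.04 and 6.02 ± 1.76 CPM (SD, n = 5 each) did not differ beyond the spread (log2 fold change 0.22, 95% interval -0.29 to 0.72, edgeR adjusted p = 0.495).

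Rnf43 (chromosome 11, 87662722 to 87735539, plus strand), the other ligase, was near the limit of detection, with 51, 28, 34, 14 and 49 counts in DDR2-plus libraries 1 to 5 and 0, 8, 8, 76 and 0 counts in PSC libraries 1 to 5. PSC 4 held more than any other library, while the remaining PSC libraries lay below all DDR2-plus libraries. A count of 0 in PSC 1 and PSC 5 allows levels of up to 0.0565 and 0.0747 CPM (3 counts). In PSC the filter was passed in 1 library and in DDR2-plus in 5, and the difference was not called (log2 fold change 0.51, 95% interval -2.06 to 3.09, edgeR adjusted p = 0.769). The ratio of summed counts, scaled to library size, was 1.43 (95% exact binomial interval 1.10 to 1.86) with PSC 4 and 6.62 (3.97 to 11.8) without it, and these intervals cover counting error only. The ratio of Znrf3 to Rnf43 was not called either (difference -2.26 on the log2 scale, exact permutation test, two-sided p = 0.151, adjusted 0.201). In PSC 1 and PSC 5, with 0 counts of Rnf43, this ratio is set by the 0.5 counts added, so the size of the difference is no measurement, with or without PSC 4.

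Apcdd1 (chromosome 18, plus strand), the inhibitor that sits in the membrane, was at 24.3, 29.7, 21.7, 26.6 and 17.5 CPM in DDR2-plus libraries 1 to 5 and at 23.0, 27.9, 20.1, 15.2 and 33.8 CPM in PSC libraries 1 to 5. PSC held both extremes, in libraries 4 and 5. The means were 24.0 ± 4.67 and 24.0 ± 7.16 CPM (SD, n = 5 each), and the 95% interval of the log2 fold change, from -0.44 to 0.44, leaves room for a difference in either direction (edgeR adjusted p = 0.994).

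Both R-spondin receptors among these genes were lower in DDR2-plus. Lgr5 (chromosome 10, 115450311 to 115587780, minus strand), a marker of stem cells in intestine and hair follicle, was at 4.36, 2.50, 8.82, 3.27 and 5.58 CPM in DDR2-plus libraries 1 to 5 and at 11.5, 9.97, 10.9, 9.80 and 11.2 CPM in PSC libraries 1 to 5. The PSC libraries lay close together, with a coefficient of variation of 6.95%, whereas it was 50.5% in DDR2-plus, where library 3 came near to the PSC level. The means of 4.90 ± 2.48 and 10.7 ± 0.741 CPM (SD, n = 5 each) were 2.17-fold apart (log2 fold change -1.12, SE 0.295, edgeR adjusted p = 0.00916). Without libraries 1 and 5 of both groups, which leaves 3 against 3, the log2 fold change was -1.07 and the call was lost (edgeR adjusted p = 0.105). Those numbers were left out because PSC 1 and PSC 5 stand apart from the other PSC libraries, whereas DDR2-plus 1 and 5 were dropped by number only. The call of Lgr5 held without PSC 1 alone and without PSC 5 alone (edgeR adjusted p = 0.0191 and 0.0179).

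Lgr6 (chromosome 1, 134983301 to 135105276, minus strand), found in stem cells of the skin and in bone-forming progenitors, was at 14.8, 18.5, 20.03, 16.3 and 13.9 CPM in DDR2-plus libraries 1 to 5. In PSC libraries 1 to 5 it was at 36.5, 24.2, 33.4, 32.8 and 24.7 CPM. All PSC libraries were above all DDR2-plus libraries, with PSC 2 and PSC 5 nearest. The level was 1.82-fold lower in DDR2-plus, at 16.7 ± 2.54 against 30.3 ± 5.55 CPM (SD, n = 5 each; log2 fold change -0.86, SE 0.147, edgeR adjusted p = 0.000528). The ratio of Lgr5 to Lgr6 within a library did not differ beyond the spread (difference -0.40 on the log2 scale, exact permutation test, two-sided p = 0.254, adjusted 0.254).

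Lgr4, the broadly expressed LGR receptor, averaged 121 CPM in DDR2-plus against 65.3 in PSC, with ranges of 101 to 146 and 48.7 to 79.1 CPM that did not overlap (log2 fold change 0.89, edgeR adjusted p = 0.000195). The family thus changed its make-up: per length of exon sequence, Lgr4 was 87.4 ± 3.11% of it in DDR2-plus and 66.7 ± 5.05% in PSC. Lgr6 made up 10.5 ± 2.08% and 26.9 ± 4.29%, and Lgr5 2.11 ± 1.23% and 6.41 ± 1.29% (SD, n = 5 each), without overlap for any of the 3. With the longest annotated transcript as the length, the share of Lgr5 was 3.85% and 11.5%. Epidermis and hair follicle, tissues known for Lgr5, Lgr6 and Lef1, left a marker sum of 39.8 to 67.9 CPM in DDR2-plus and 25.6 to 36.8 CPM in PSC. Among 6 testable markers of these 10, DDR2-plus had 4 higher and 0 lower, beside 20.1% higher and 19% lower of all genes tested. The 4 were Krt15 (12.9 against 0.618 CPM), Cdh1 (6.11 against 0.332), Epcam (12.5 against 5.55) and Krt1 (1.27 against 0.349). The keratins Krt5 and Krt14, which did not pass the filter, were at 1.07 and 0.234 CPM in DDR2-plus and 0.120 and 0.0151 CPM in PSC. Krt17 had 0 counts in every PSC library. The part of these tissues in the differences was not tested.

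**Figure D3:**
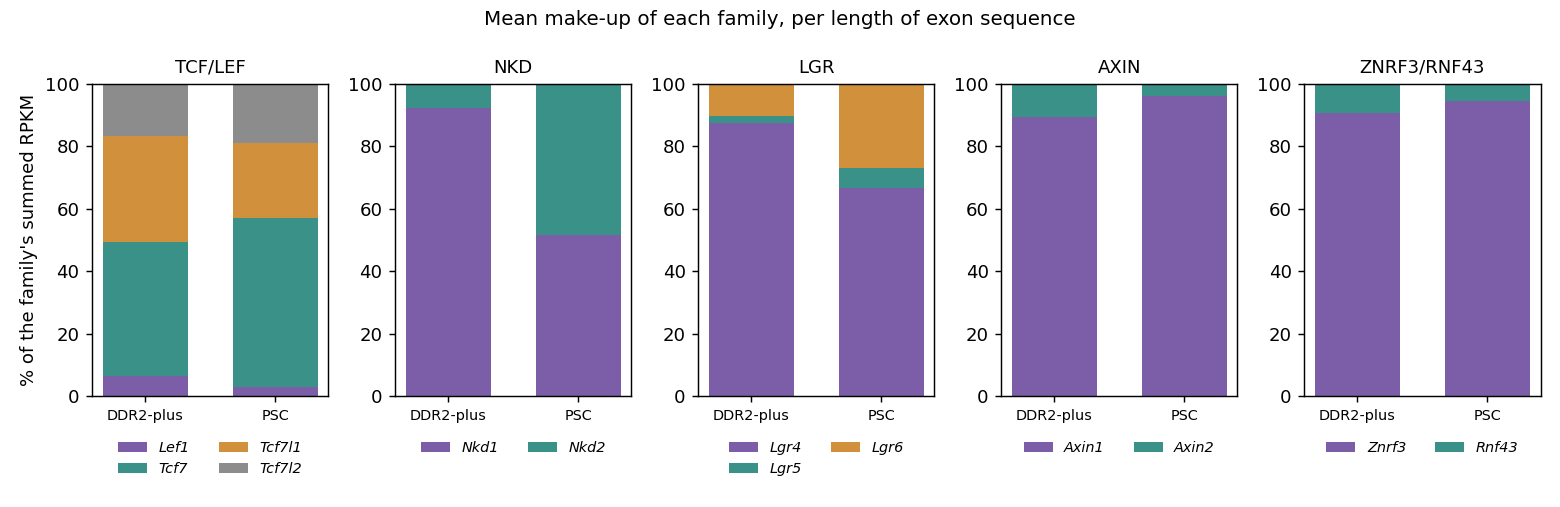
Mean share of each relative in the summed length-scaled level (RPKM, CPM per kilobase of exon sequence) of its family, with 1 bar for each population. The Nkd2 share of the NKD pair is 7.82% in DDR2-plus and 48.4% in PSC, and the Lgr4 share of the LGR receptors is 87.4% and 66.7%.

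On the length-scaled level, which allows genes to be compared with each other, the order in DDR2-plus was Tcf7 at 17.6 ± 2.95 RPKM, Nkd1 at 12.8 ± 2.43, Lef1 at 2.74 ± 0.348, Lgr6 at 2.44 ± 0.371, Apcdd1 at 1.86 ± 0.362, Nkd2 at 1.03 ± 0.316, Axin2 at 1.01 ± 0.160, Znrf3 at 0.887 ± 0.131, Lgr5 at 0.478 ± 0.241 and Rnf43 at 0.0918 ± 0.0436 RPKM (SD, n = 5). The ranges of neighbours in this order overlapped except between Nkd1 and Lef1 and between Lgr5 and Rnf43. In PSC the order was Tcf7 at 27.3 ± 3.96 RPKM, Nkd1 at 9.34 ± 1.04, Nkd2 at 8.82 ± 1.40, Lgr6 at 4.42 ± 0.810, Apcdd1 at 1.86 ± 0.556, Lef1 at 1.47 ± 0.414, Lgr5 at 1.04 ± 0.0722, Znrf3 at 0.763 ± 0.223, Axin2 at 0.492 ± 0.138 and Rnf43 at 0.0642 ± 0.113 RPKM (SD, n = 5). Here neighbours were apart between Tcf7 and Nkd1, Nkd2 and Lgr6, Lgr6 and Apcdd1, and Axin2 and Rnf43. Tcf7 led in both populations, and Nkd2 moved from sixth place in DDR2-plus to the third in PSC. With the longest annotated transcript as the length, Axin2 passed Nkd2 in DDR2-plus, and in PSC Nkd2 passed Nkd1 while Apcdd1 fell behind Lef1 and Lgr5.

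**Figure D4:**
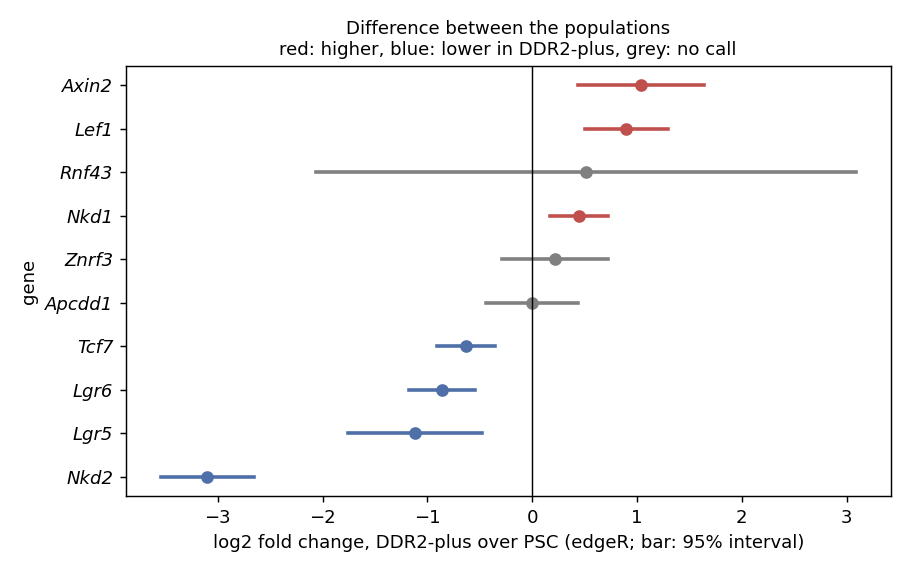
Log2 fold change of DDR2-plus over PSC for each gene, with the 95% interval as a bar, in red where higher, blue where lower and grey where the adjusted p missed 0.05. Nkd2, at -3.10, lies far to the left of the others, and the interval of Rnf43, from -2.06 to 3.09, is the widest.

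Markers of several cell types differed between the populations as well, and in bulk RNA fewer cells of a type and less RNA per cell cannot be told apart. All 10 of 10 cartilage markers were higher in DDR2-plus (summed level 93616 to 128632 CPM against 12575 to 28354 CPM), and in PSC the tendon markers (6 of 6 lower in DDR2-plus) and the osteoblast markers (8 of 10 lower in DDR2-plus) were higher. The summed tendon level was 133 to 253 CPM in DDR2-plus and 2572 to 3146 CPM in PSC, and the osteoblast level was 47720 to 86364 CPM and 264826 to 294810 CPM. Glial markers were higher in 8 of 8 (437 to 949 against 40.7 to 96.2 CPM), neuronal ones in 6 of 8 and pineal ones in 5 of 6 in DDR2-plus, with Slc17a6, Aanat and Cdhr1 at 0 in every PSC library. Endothelial markers were higher for 3 and lower for 2 of 6 tested, myeloid for 1 and 1 of 6, and meningeal for 2 and 3 of 6. Over all genes tested, 20.1% were higher and 19% lower in DDR2-plus. Of the genes behind the labels, Ddr2 and Ctsk were both lower in DDR2-plus (log2 fold changes -0.44 and -1.46). The part of these differences in those of the WNT genes was not tested.

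Within DDR2-plus, library 3 was the highest for Axin2, Nkd2, Lgr5 and Lgr6 and the lowest for Nkd1 and Znrf3. The same library had the largest share of counts from Col1a1 and Col1a2, 8.24% against 4.56 to 6.38% in the other DDR2-plus libraries and 21.5 to 23.7% in PSC. It also had the highest osteoblast sum and the lowest cartilage sum of its group, at 86364 and 93616 CPM. Without DDR2-plus 3 the log2 fold changes were 0.96 for Axin2, -3.29 for Nkd2, -1.45 for Lgr5 and -0.94 for Lgr6, all still past the threshold (edgeR adjusted p between 4.18e-07 and 0.0279).

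Around these genes, the other parts of the pathway were counted by role. Of 21 ligands and export factors 15 were tested, with 2 higher, 4 lower and 9 not called. Over all genes tested, 20.1% were higher and 19% lower. The ligands Wnt10a (log2 fold change -3.34), Wnt6 (-2.76) and Wnt9a (-2.31) were lower in DDR2-plus (edgeR adjusted p = 0.0122, 0.0112 and 1.07e-06). Levels were low for Wnt10a, at 0.133 against 1.37 CPM, and for Wnt6, at 0.861 against 5.83 CPM. The 2 higher were the ligands Wnt11, at 32.3 against 20.5 CPM, and Wnt4, at 9.59 against 4.57 CPM (edgeR adjusted p = 0.000788 and 0.00648). The Wnt6 call was lost without libraries 1 and 5 of both groups (edgeR adjusted p = 0.0709). Wls, the carrier that brings WNT proteins to the surface, averaged 260 CPM in DDR2-plus against 282 in PSC and was not called (edgeR adjusted p = 0.292).

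The R-spondins, the ligands of the LGR receptors, did not move as a set. Rspo3 was 2.27-fold higher in DDR2-plus, at 43.3 ± 6.33 against 19.1 ± 1.27 CPM, and Rspo1 was 7.04-fold lower, at 1.97 ± 0.695 against 13.9 ± 5.54 CPM (SD, n = 5 each; edgeR adjusted p = 4.82e-06 and 3.50e-05). Rspo2 was called lower (log2 fold change -0.94, edgeR adjusted p = 0.0486), a call that held in only 6 of 19 alternative settings, with adjusted p up to 0.141. Rspo4 averaged 1.17 CPM in DDR2-plus against 0.551 in PSC and was not called (edgeR adjusted p = 0.143).

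Of 16 receptors and co-receptors, 4 were higher, 9 lower and 3 not called, beside 20.1% higher and 19% lower of all genes tested. Fzd10 and Fzd9 were higher in DDR2-plus (log2 fold changes 2.65 and 1.66; edgeR adjusted p = 0.000885 and 2.12e-05), with Fzd9 at 270 against 85.4 CPM. The co-receptor Lrp5 was lower, at 5.21 against 15.8 CPM (log2 fold change -1.60, edgeR adjusted p = 1.54e-05), while Lrp6, at 98.2 and 86.4 CPM, was not called (edgeR adjusted p = 0.115).

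Secreted antagonists had the lowest median log2 fold change of these lists, -1.26. Of the 12 tested, DDR2-plus had 9 lower and 3 higher, beside 19% lower and 20.1% higher of all genes tested. Sfrp4 and Sfrp5, which bind WNT proteins, and Sost, which blocks LRP co-receptors, were lower by log2 fold changes of -2.82, -2.73 and -2.48 (edgeR adjusted p = 1.78e-06, 3.38e-06 and 4.42e-05). The 3 higher were Frzb (142 against 38.6 CPM), Notum (83.5 against 45.6) and Sostdc1 (15.2 against 5.72; edgeR adjusted p = 2.29e-06, 0.00112 and 0.0280). The number called higher was 2 with limma-voom and in some settings that left out 1 library.

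Of 16 genes of the core that carries the signal inside the cell, 2 were higher, 2 lower and 12 not called. Over all genes tested, 20.1% were higher and 19% lower. The median log2 fold change of the core was -0.02, beside 0.04 over all genes tested. Beta-catenin itself, Ctnnb1, was at 671 ± 41.9 and 696 ± 57.5 CPM (SD, n = 5 each; log2 fold change -0.05, edgeR adjusted p = 0.605). Amer1, which helps to bring AXIN to the membrane, was lower (-0.76), and Btrc, which marks beta-catenin for breakdown, was higher (0.68; edgeR adjusted p = 0.00139 and 0.0057). Apc2, a relative of the scaffold APC, was called higher (1.31, edgeR adjusted p = 0.0383), a call that was lost in 8 of the 10 settings that left out 1 library. The Btrc call was lost without libraries 1 and 5 of both groups (edgeR adjusted p = 0.0952).

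Of 11 nuclear partners 1 was higher, 4 lower and 6 not called, beside 20.1% higher and 19% lower of all genes tested. The co-repressors Tle4 and Tle3 went apart, with log2 fold changes of 1.13 and -0.62 (edgeR adjusted p = 0.00243 and 0.00115), and Pygo2, a co-activator subunit, did not pass the test (edgeR adjusted p = 0.566). With library size alone as the scaling, the counts were 8 higher and 1 lower for the core and 4 higher and 1 lower for the nuclear partners. Among 9 tested further targets and feedback genes, 3 were higher, 3 lower and 3 not called, against the same shares of all genes tested. Myc, a driver of cell growth, rose 2.72-fold from PSC to DDR2-plus, at 81.9 ± 18.0 and 223 ± 42.0 CPM, whereas Tnfrsf19, the gene of the receptor TROY, was lower by a log2 fold change of -1.33 and Dact3, which encodes a Dishevelled antagonist, by -1.16 (edgeR adjusted p = 3.54e-05, 3.05e-05 and 0.0155). Its relative Dact1 averaged 114 CPM in DDR2-plus against 119 in PSC and was not called (edgeR adjusted p = 0.55). Ccnd1 (41.5 against 21.3 CPM) and Kremen1 (89.8 against 75.7) were also higher, and Bambi (122 against 216) was also lower (edgeR adjusted p = 0.000482, 0.0237 and 5.60e-05). Sp5, with 453 counts in DDR2-plus and 32 in PSC, had a log2 fold change of 3.33 and was not called (edgeR adjusted p = 0.0795).

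**Figure D5:**
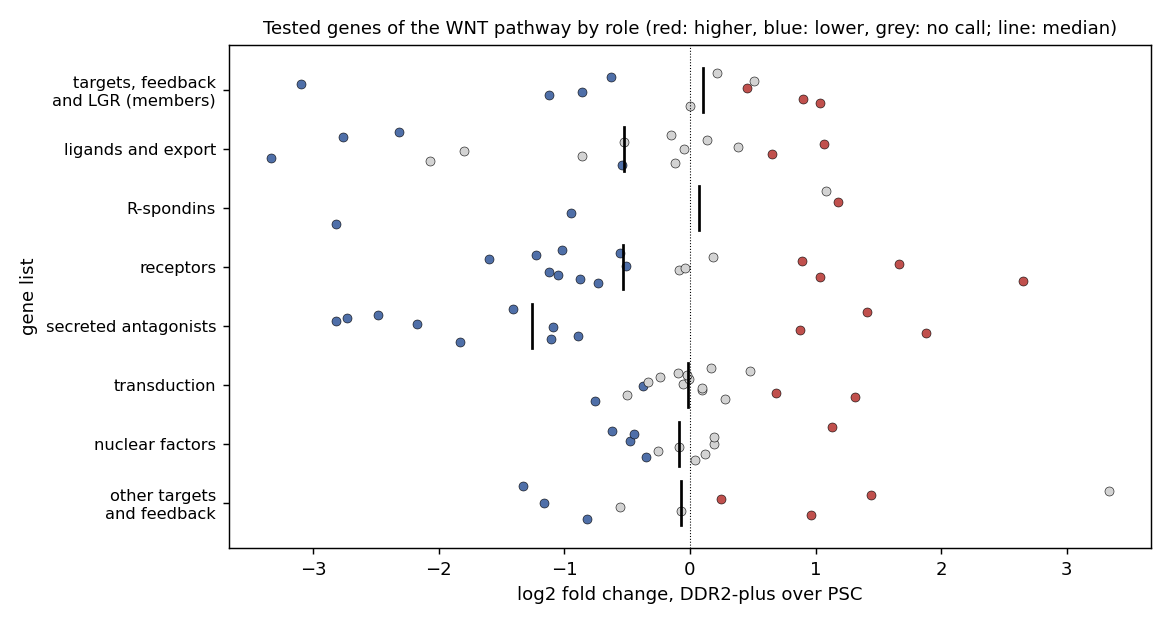
Log2 fold change of DDR2-plus over PSC for every tested gene of the WNT pathway, 1 row for each role, with red for higher, blue for lower, grey for not called, and a line at the median. The secreted antagonists have the median farthest to the left, at -1.26, and the transduction core sits close to 0, at -0.02.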

How the data were processed

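RNA was amplified from 1 ng per sample, libraries were made with a transposase kit and sequenced paired-end with 50 cycles, per the labels' protocols. The deposited table holds raw whole-number counts for each symbol. Per the submitters' processing notes the build was mm10 and DESeq was used, and for the aligner, counter and annotation the entry is: not given in the sources used here. Library totals were 43419129 to 62021992 counts. Reads are amplified copies, and the binomial intervals of Rnf43 cover counting error only. The intervals of log2 fold changes also include the spread between libraries. No libraries of a group agreed within sampling noise (lowest chi-square per degree of freedom 41.9). The first principal component (51.7% of variance) parted the groups, and PSC 1 and PSC 5 were far apart on the second (10.4%). Table columns not matched to a sample numbered 0.

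Groups were compared with edgeR 4.0.16 in R 4.3.3 (TMM factors, filterByExpr with a minimum count of 10, quasi-likelihood test, Benjamini-Hochberg threshold 0.05). Standard errors come from dividing the log2 fold change by the root of F. Counts were simulated for this comparison with 100 genes changed 2-fold and 100 changed 4-fold (15086 genes tested). The test recovered 61% of the 2-fold and 83% of the 4-fold changes, and 3.36% of its calls were unchanged genes. Far more genes were called in the data, 3096 higher and 2926 lower, so these rates may not carry over to them. Ratios had 0.5 counts added. Alternatives used DESeq2 1.42.0, voom in limma 3.58.1, other factors and filters, a replicate block and left-out libraries, of which leaving out numbers 1 and 5 and the transcript length were chosen after seeing the data. Exon lengths and positions came from the GENCODE annotation of mm10.

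All 10 genes were named, and from each pathway list up to 3 called genes with the largest fold change and at least 1 CPM in the higher group, plus the most abundant gene without a call. Axin1, Tcf7l1, Lgr4 and cell type markers were named as relatives or from marker lists. Wnt4, Wnt11, Frzb, Notum and Sostdc1 were named as the genes called higher in their lists. Ccnd1, Kremen1 and Bambi were named as the remaining called genes of the further targets, and Sp5 for the largest fold change of that list. The genes and lists were chosen with earlier results of these data known.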

Additional observations from a re-analysis of the deposited data

Results flagged for a closer look

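Rnf43 in PSC 4 stood far from the other libraries of its group, at 1.74 CPM against 0.185 CPM in the next highest PSC library. The gap, divided by the range of the 5 PSC libraries, was 0.894. Over the 28 groups of 5 values checked in this way, chance alone flags about 5% of groups.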

How the results depend on the processing

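The 7 called genes kept their direction and call in each of 18 planned settings. After leaving out libraries 1 and 5 of both groups, chosen after seeing the data, Lgr5 was no longer called (log2 fold change -1.07, edgeR adjusted p = 0.105) and Rnf43 turned to -0.75. Rnf43, not tested with at least 1 CPM in 5 libraries and without a call in the other settings, was at 0.51 in the reported fit, 2.52 with limma-voom, 2.43 with the replicate block and 2.69 without PSC 4. Scaling by library size alone moved the median log2 fold change of all genes from 0.04 to 0.31 and the calls to 5421 higher and 1538 lower, so that 77.9% instead of 51.4% of calls were higher. Apcdd1, without a call throughout, changed sign around 0: 0.00588 with DESeq2, 0.0371 with limma-voom, 0.00605 with RLE factors, 0.0011 with upper-quartile factors and with at least 1 CPM in 5 libraries, 0.26 with library size alone, 0.00086 without a filter, 0.0296 with the replicate block, 0.30 without numbers 1 and 5, and -0.13 to 0.15 leaving out 1 library. The cause was not tested. Leaving out 1 library, the log2 Znrf3/Rnf43 difference ran from -3.17 to -1.50, values that depend on the 0.5 counts added where Rnf43 had 0 counts. Same-numbered libraries correlated at 0.0289 to 0.0532 in their deviations and others at -0.0512 to 0.0191, so that 10 of 10 correlated best with their own number, a hint from the data. Every same-number value thus lay above every other value. The reported fit did not take the libraries as pairs because these values are under 0.1, a cut-off that does not settle the pairing. Whether libraries of the same number came from the same mouse is not settled. The replicate block changed no call of these 10 genes (Nkd2 -3.13, edgeR adjusted p = 9.73e-06). In ratios, 5 pairs cannot give an exact sign-flip p below 0.0625.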
